A study of Mus musculus with 6 samples.

Results

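The genes described here are 31 genes that mark or serve the contractile and supporting cells of the glomerulus and its vessels: mesangial cells, pericytes and vascular smooth muscle cells. They were chosen by name as known genes of these cells, with earlier results of the same libraries known, and are 31 of the 55401 Ensembl genes in the deposited count table. All 31 had enough counts to be tested, among 19717 tested genes. The libraries came from glomeruli, the filtering units of the kidney, isolated from mice. The labels name a DKD group and a Control group with 3 libraries each, both under the heading of genotype, and diabetic kidney disease is what DKD stands for in the series title. The labels state neither the means of producing the disease nor the strain, age, alleles or agents, and they do not say that each library came from its own animal. The p-values therefore measure the spread between these libraries, which may be partly technical. The stated purpose of the series is the profile of histone methyltransferase transcripts, and the question put to the present genes is which of them differed between the same libraries.

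Mesangial cells sit between the capillary loops of the glomerulus, hold the loops together and contract in response to vasoactive hormones. Their growth and recruitment depend on platelet-derived growth factor acting through its receptor beta. Smooth muscle cells of the arterioles and pericytes share much of the same machinery: calcium activates myosin light chain kinase, phosphorylated myosin pulls on actin, and cyclic GMP relaxes the cell. Mesangial expansion is a classic lesion of diabetic kidney disease.

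The libraries held between 71154026 and 83576494 counts each. Levels are given in CPM, counts relative to library size after TMM scaling. Each ± beside a level is an SD over n = 3 libraries, and each ± beside a log2 fold change, always DKD over Control, is a standard error. All 31 genes had counts in all 6 libraries, with 1.85 CPM of Art3 in DKD replicate 1 as the lowest level. The podocyte gene Nphs1, which marks glomeruli, had 28.0, 24.8 and 41.2 CPM in DKD, against 55.6, 50.0 and 41.3 CPM in Control. Control replicate 3 stood apart. In a principal component analysis its score on the leading axis (39.8% of the variance) was -101, while the other Control libraries had -18.0 and -15.0. It was the lowest Control library for 30 of the 31 genes (96.8%), against 42.9% of all tested genes. In 13 of the 31 (41.9%) it also lay below every DKD library, against 36.5% of all tested genes. Its summed level of 8 proximal tubule markers was 34167 CPM, against 15219 and 17266 CPM in Control replicates 1 and 2 and 7837 to 16531 CPM in DKD. Of that sum 21114 CPM came from 1 gene, Kap, which had 7800 and 9948 CPM in Control replicates 1 and 2. Relative to the mean of those 2 libraries, the markers in Control replicate 3 had a median ratio of 1.80, with Aqp1 at 1.04 and Cubn at 1.22. Among the DKD libraries, replicate 3 had the score farthest from the others on the leading axis (79.7, against 27.1 and 27.5), and its proximal tubule sum was the lowest of all 6 libraries. Values without Control replicate 3 are given for the genes whose log2 fold change it moved by over 1.5 times, and values without DKD replicate 3 for the set. In bulk RNA, fewer cells of a type and less RNA per cell cannot be told apart.

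In DKD 26 of the 31 genes had lower values than in Control (83.9%, against 49.8% of all tested genes) and 5 had higher ones, with a median log2 fold change of -0.29, against 0.003 over all tested genes. By the quasi-likelihood test of edgeR, with Benjamini-Hochberg adjusted p under 0.05 over all genes, 1 of the 31 fell (3.23%) and 0 rose, where 0.431% of all genes fell and 0.725% rose (1.16% together). The gene that fell was Mylk, myosin light chain kinase. At an unadjusted p under 0.05, 5 genes were lower (16.1%) and 1 higher (3.23%), where 10.9% and 11.8% of all genes were (22.6% together). The groups did not overlap, with DKD lower, for 4 genes (12.9%), against 15.2% of all genes, and with DKD higher for 1 gene (3.23%), against 15.5%. The shares at the unadjusted threshold and without overlap were near or below those of all genes, and the adjusted share rests on 1 gene.

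**Figure D1:**
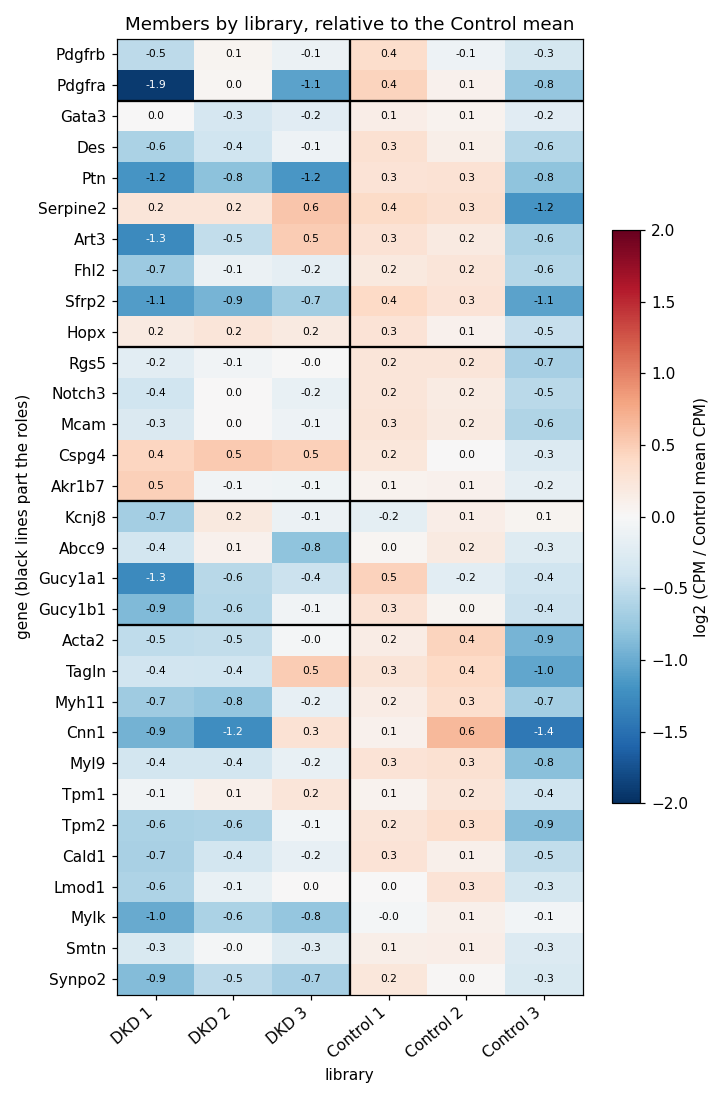
Log2 of the CPM in each library over the Control mean, for the 31 genes (rows, parted into roles by black lines) in the 3 DKD and 3 Control libraries (columns). Blue is below and red above the Control mean; most DKD cells are blue, and so is the column of Control replicate 3.

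Without Control replicate 3 the median of the 31 genes was -0.47, with 27 lower in DKD. In that fit 17 of them were lower at an unadjusted p under 0.05 (54.8%), against 11.4% of all genes. That library was the lowest Control library for 30 of the 31 genes, so this share follows in part from which library was left out. Adjusted over all genes, 3 fell by edgeR (9.68%), namely Mylk, Ptn and Sfrp2, where 0.736% of all genes fell and 1.15% rose (1.88% together). Without Control replicate 1, 22 of the 31 were lower and 3 had an unadjusted p under 0.05 in either direction (3557 of 20288 over all genes). Without Control replicate 2 these counts were 23 and 4 (3278 of 20339 over all genes). With DKD replicate 3 left out instead, 26 of the 31 genes were lower in DKD, 0 passed by edgeR, and the median was -0.39. In that fit 7 of the 31 had an unadjusted p under 0.05 in either direction, against 3016 of 20383 over all genes. Median levels of the 31 genes relative to the Control mean, on a log2 scale, were -0.61, -0.34 and -0.12 in DKD replicates 1 to 3, and 0.25, 0.17 and -0.54 in Control replicates 1 to 3. The DKD libraries thus lay between Control replicates 1 and 2 on one side and, but for DKD replicate 1, Control replicate 3 on the other. The Control spread was the wider: the ratio of highest to lowest library was larger in Control than in DKD for 24 of the 31 genes (77.4%), against 51.3% of all genes.

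The contractile apparatus was represented by 12 genes. Of these 11 were lower in DKD and 1 was higher, the median log2 fold change was -0.36, and Mylk was the only one of the 12 past the threshold. Mylk (ENSMUSG00000022836), which encodes the calcium-calmodulin dependent kinase that phosphorylates the regulatory light chain of myosin, had 70.8, 91.7 and 82.7 CPM in DKD replicates 1 to 3, against 138, 152 and 136 CPM in Control replicates 1 to 3. Every DKD library lay below every Control library, and Control replicate 3 was here close to the other Control libraries. This gave a log2 fold change of -0.80 ± 0.13 and an edgeR adjusted p of 0.0456, so that the DKD level was 57.6% of that in Control. Without Control replicate 3 the log2 fold change was -0.83 and the edgeR adjusted p 0.0444. The call was lost on leaving out Control replicate 1, Control replicate 2, DKD replicate 1 or DKD replicate 3 (edgeR adjusted p 0.147, 0.149, 0.154 and 0.145), with a log2 fold change between -0.82 and -0.70. It was also lost with the trend on transcript length removed (-0.57, edgeR adjusted p 0.0702). The gene gives rise to smooth muscle, non-muscle and telokin products, which counts per gene do not separate, and models on the opposite strand cover 6.85% of its exonic bases.

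Myl9 encodes the smooth muscle regulatory light chain on which this kinase acts. It had 55.0, 54.7 and 63.5 CPM in DKD replicates 1 to 3, against 85.0, 87.3 and 39.3 CPM in Control replicates 1 to 3. All DKD libraries lay between Control replicate 3 and the other Control libraries. Its log2 fold change was -0.29 ± 0.29 with an edgeR adjusted p of 0.594, and -0.58 ± 0.11 with 0.0562 without Control replicate 3. The ratio of Mylk to Myl9 CPM within a library, which does not depend on the scaling between libraries, was 1.29, 1.68 and 1.30 in DKD and 1.62, 1.74 and 3.46 in Control. Those ranges overlapped. As a share of the summed CPM of the 12 contractile genes, Mylk took 13.4%, 15.7% and 12.0% in DKD, against 16.7%, 17.0% and 25.6% in Control, without overlap. The CPM of Mylk alone already did not overlap, as in 15.2% of all genes with DKD lower.

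Smooth muscle promoters are known to be driven by serum response factor through the CArG box, a stretch of CC, 6 bases that are A or T, and GG, which reads as the same motif on both strands. The promoters of the kinase, its substrate and smooth muscle actin, from 250 bases before to 50 after the start, are shown to let these windows be compared. They are RefSeq sequences on build GRCm38.p6, which precedes the GRCm39 build named for the counts, at chr16:34784700-34784999 (plus strand) for Mylk, chr2:156775214-156775513 (plus strand) for Myl9 and chr19:34255324-34255623 (minus strand) for Acta2. Capitals mark each CArG box and each box with 1 other base among the central 6.
Mylk: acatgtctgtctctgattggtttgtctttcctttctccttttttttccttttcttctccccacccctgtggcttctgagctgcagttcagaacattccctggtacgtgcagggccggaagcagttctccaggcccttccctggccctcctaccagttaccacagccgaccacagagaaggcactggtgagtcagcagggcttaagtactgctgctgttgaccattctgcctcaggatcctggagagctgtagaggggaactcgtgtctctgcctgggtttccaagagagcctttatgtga
Myl9: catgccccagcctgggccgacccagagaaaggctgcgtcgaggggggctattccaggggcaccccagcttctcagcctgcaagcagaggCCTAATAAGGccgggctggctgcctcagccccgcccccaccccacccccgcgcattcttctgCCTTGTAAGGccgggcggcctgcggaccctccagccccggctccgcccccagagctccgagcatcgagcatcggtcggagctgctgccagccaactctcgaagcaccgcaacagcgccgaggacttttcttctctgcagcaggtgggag
Acta2: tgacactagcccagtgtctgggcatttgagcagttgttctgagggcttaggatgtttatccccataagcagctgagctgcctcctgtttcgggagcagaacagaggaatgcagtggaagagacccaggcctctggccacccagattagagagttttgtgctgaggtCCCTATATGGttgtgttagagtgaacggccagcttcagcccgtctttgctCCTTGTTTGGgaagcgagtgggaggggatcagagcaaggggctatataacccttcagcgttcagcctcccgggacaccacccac
Myl9 held 1 box in this window, CCTAATAAGG, beginning 161 bases before the start, and 1 with another base in its centre, 99 bases before it. Acta2 held 2 with another base in the centre, beginning 84 and 34 bases before the start, and the window of Mylk held neither form. For Mylk the table gives 1 window and does not say which of its products starts there. Among the 28 of the 31 genes with a promoter in the table, 3 held the box (10.7%), namely Myl9, Fhl2 and Hopx, against 1.81% of the 27025 genes in the table. With 1 other base allowed in the centre there were 4 (the same 3 and Acta2), against 11.3% of all genes. Of the 10 contractile genes with a promoter in the table, 1 held the box itself, namely Myl9. Fhl2 and Hopx are listed here with the mesangial genes. No promoter was given for Myh11, Tagln and Pdgfrb. A match describes the letters only, and its absence says nothing of the factor, which can act outside the window.

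Acta2, the smooth muscle actin, had 71.5, 72.5 and 99.1 CPM in DKD replicates 1 to 3, against 113, 139 and 53.7 CPM in Control replicates 1 to 3. The groups overlapped because Control replicate 3 was the lowest library of all 6. With all libraries the log2 fold change was -0.33 ± 0.33 and the edgeR adjusted p 0.600, and they were -0.64 ± 0.18 and 0.104 without Control replicate 3. Its coding sequence is close to those of other actin genes, and how shared reads were counted is not given in the sources used here. Myh11, the smooth muscle myosin heavy chain, had 46.9, 45.2 and 68.4 CPM in DKD, against 85.6, 97.0 and 48.2 CPM in Control. DKD replicates 1 and 2 lay just below Control replicate 3. For Myh11 the log2 fold change was -0.52 ± 0.28 (edgeR adjusted p 0.314), and -0.77 ± 0.20 (0.0848) without Control replicate 3.

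Tagln, which encodes the actin-binding protein transgelin, had 42.0, 41.6 and 78.0 CPM in DKD, against 65.9, 72.2 and 26.8 CPM in Control. DKD replicate 3 was the highest of the 6 libraries and Control replicate 3 the lowest. The log2 fold change of -0.03 ± 0.40 (edgeR adjusted p 0.975) was positive without Control replicate 1, Control replicate 2, DKD replicate 1 or DKD replicate 2, and with limma-voom. Leaving out DKD replicate 3 gave -0.39, and leaving out Control replicate 3 gave -0.36. Models on the opposite strand, Pcsk7 among them, cover 67.9% of its exonic bases, and whether counting used the strand is not given in the sources used here, so its level is uncertain. Cnn1, the thin-filament protein calponin 1, likewise had its highest DKD library in replicate 3 and its lowest library of all in Control replicate 3, with 3.27, 2.66 and 7.68 CPM in DKD against 6.68, 9.83 and 2.33 CPM in Control. Its log2 fold change was -0.47 ± 0.58 (edgeR adjusted p 0.679), and -0.86 ± 0.47 (0.315) without Control replicate 3.

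Synpo2, which encodes an actin-bundling protein of the Z-disc and dense bodies also called myopodin, had 5.56, 7.09 and 6.38 CPM in DKD, against 11.9, 10.4 and 8.23 CPM in Control. No DKD library reached a Control library. Its log2 fold change of -0.68 ± 0.20 had an edgeR adjusted p of 0.115 and a DESeq2 adjusted p of 0.0174. Of all genes given an adjusted p, DESeq2 called 14.0% in all, 6.34% lower and 7.64% higher in DKD. Smtn, the smooth muscle cytoskeletal protein smoothelin, had 72.1, 86.5 and 74.0 CPM in DKD, against 95.6, 96.7 and 73.4 CPM in Control, with a log2 fold change of -0.19 ± 0.15 (edgeR adjusted p 0.480), and of -0.31 ± 0.12 (0.177) without Control replicate 3. Tpm1, a tropomyosin that winds along actin filaments, was the 1 contractile gene with a positive log2 fold change, 0.10 ± 0.18 (edgeR adjusted p 0.799). It had 98.8, 111 and 123 CPM in DKD, against 109.5, 123 and 78.8 CPM in Control. Its sign turned with library totals alone (-0.06) and without Control replicate 3 (-0.07). The sister tropomyosin Tpm2 had a log2 fold change of -0.41 ± 0.32, the actin-binding regulator Cald1 had -0.38 ± 0.22, and Lmod1, which nucleates actin filaments in smooth muscle, had -0.23 ± 0.25. In each of these last 3 genes the groups overlapped. Without Control replicate 3 Tpm2 had -0.70 ± 0.19, Cald1 -0.58 ± 0.16 and Lmod1 -0.37 ± 0.24, with edgeR adjusted p of 0.101, 0.0944 and 0.395.

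**Figure D2:**
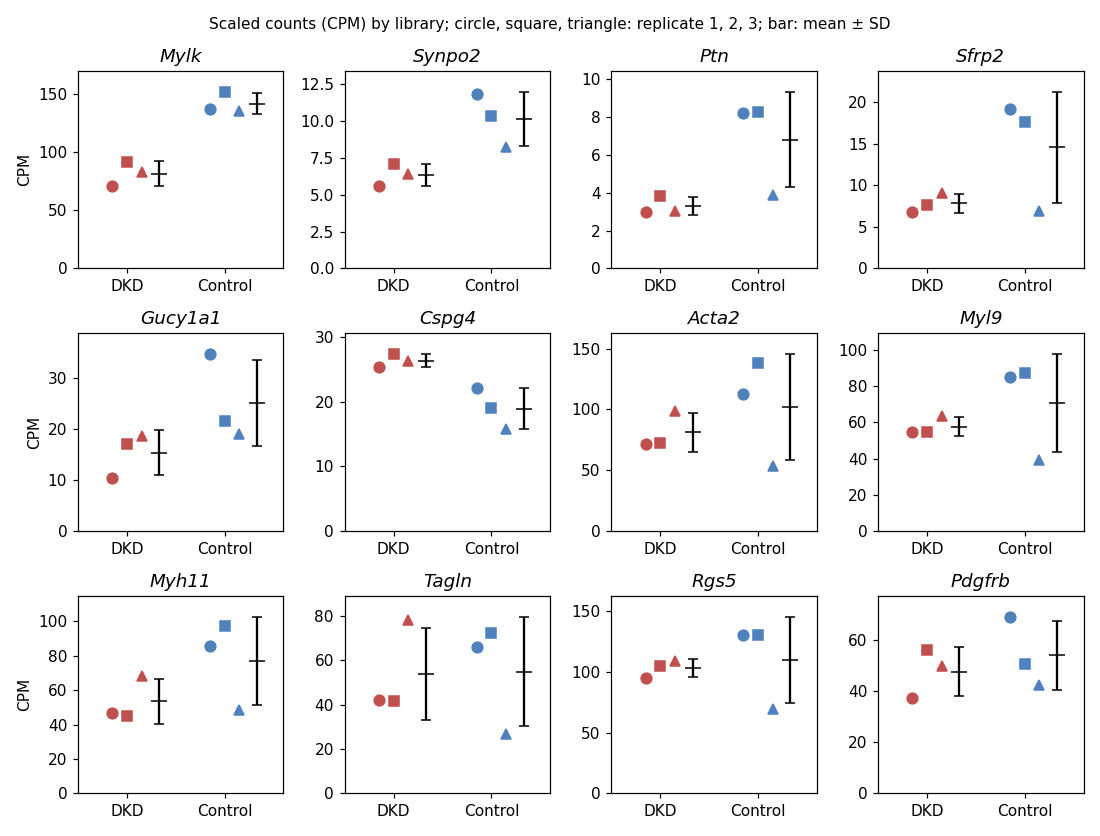
CPM of 12 of the genes in the DKD (red, left) and Control (blue, right) libraries, with circle, square and triangle for replicates 1, 2 and 3 and a black bar for the mean ± SD of each group (n = 3). In Mylk the 3 DKD points lie at 70.8 to 91.7 CPM under all Control points, whereas in Acta2, Myl9, Myh11, Tagln and Rgs5 the triangle of Control replicate 3 lies low.

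The receptors of platelet-derived growth factor are a pair in this set. Pdgfrb, the receptor through which mesangial cells and pericytes are recruited, had 37.3, 55.8 and 49.6 CPM in DKD replicates 1 to 3, against 68.8, 50.4 and 42.3 CPM in Control replicates 1 to 3. The spread within each group covered its log2 fold change of -0.18 ± 0.22 (edgeR adjusted p 0.671) which was -0.33 ± 0.21 without Control replicate 3. Pdgfra, a receptor found on mesangial cells and on interstitial fibroblasts, had 12.6, 48.7 and 22.8 CPM in DKD, against 64.8, 50.5 and 27.8 CPM in Control. DKD replicate 1 was the lowest of the 6 libraries and DKD replicate 2 was near Control replicate 2. This pair of groups gave -0.77 ± 0.50 on the log2 scale (edgeR adjusted p 0.409). The summed level of 8 interstitial fibroblast markers, Pdgfra not among them, was 107, 327 and 277 CPM in DKD and 274, 253 and 97.3 CPM in Control. The libraries ranked alike within each group on this sum and on Pdgfra. Of the 8 markers 2 were lower in DKD. None was at 0 in any library, and their part in the Pdgfra values was not tested.

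Of the 8 genes of mesangial identity and secreted factors, 6 were lower in DKD and 2 higher, with a median log2 fold change of -0.28, and 0 passed the edgeR threshold. At an unadjusted p under 0.05 there were 2, both lower (25%, against 10.9% of all genes). DESeq2 called 1, Ptn, where it called 14.0% of all genes, 6.34% lower. Ptn encodes pleiotrophin, a secreted heparin-binding growth factor. It had 2.99, 3.84 and 3.03 CPM in DKD, against 8.23, 8.29 and 3.89 CPM in Control. The groups did not overlap, although DKD replicate 2 and Control replicate 3 nearly met. The log2 fold change of Ptn, -1.05 ± 0.33, was the most negative of the 31, with an edgeR adjusted p of 0.128 and a DESeq2 adjusted p of 0.0217. Without Control replicate 3 it was -1.33 ± 0.21 with an edgeR adjusted p of 0.0382. Sfrp2, a secreted modulator of Wnt signalling, had 6.74, 7.67 and 9.06 CPM in DKD, against 19.2, 17.7 and 6.94 CPM in Control. Here Control replicate 3 fell within the DKD range while the other Control libraries were far above it. Sfrp2 had a log2 fold change of -0.90 ± 0.36 (edgeR adjusted p 0.203), and of -1.24 ± 0.17 (0.0284) without Control replicate 3.

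Gata3, a transcription factor required for mesangial cells in the mouse, had 14.9, 11.7 and 12.8 CPM in DKD, against 16.3, 15.6 and 12.7 CPM in Control. The spread within each group covered the difference, with a log2 fold change of -0.18 ± 0.16 (edgeR adjusted p 0.548), and of -0.28 ± 0.15 (0.320) without Control replicate 3. Des, the intermediate filament protein desmin of muscle and mesangial cells, which injured podocytes also make, had 13.6, 15.9 and 19.7 CPM in DKD, against 26.2, 23.0 and 14.2 CPM in Control. Its log2 fold change was -0.36 ± 0.25 (edgeR adjusted p 0.425), and -0.58 ± 0.17 (0.116) without Control replicate 3. Fhl2, a LIM-domain cofactor, had 16.4, 25.0 and 23.8 CPM in DKD, against 30.9, 32.0 and 18.3 CPM in Control, with a log2 fold change of -0.32 ± 0.25 (edgeR adjusted p 0.499), and of -0.53 ± 0.19 (0.156) without Control replicate 3.

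Serpine2, an inhibitor of serine proteases such as thrombin and urokinase, had 50.2, 50.3 and 62.5 CPM in DKD, against 55.4, 53.1 and 18.8 CPM in Control. Its positive log2 fold change of 0.36 ± 0.37 (edgeR adjusted p 0.613) came with Control replicate 3 and was 0.00 ± 0.13 without it. Hopx, a homeodomain-only cofactor, had 5.92 to 6.22 CPM in DKD and 3.82 to 6.34 CPM in Control, with a log2 fold change of 0.20 ± 0.23, and of 0.02 without Control replicate 3. Art3, an ADP-ribosyltransferase anchored in the membrane, had 1.85 to 6.41 CPM in DKD and 2.91 to 5.50 CPM in Control, the widest DKD range among these 8 genes in ratio. Art3 had a log2 fold change of -0.24 ± 0.47, and of -0.47 ± 0.48 without Control replicate 3.

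Among the 5 pericyte and juxtaglomerular genes 3 were lower and 2 higher in DKD, and 0 passed the edgeR threshold. At an unadjusted p under 0.05 there was 1, higher (20%, against 11.8% of all genes). DESeq2 also called it, where it called 7.64% of all genes higher. Cspg4 encodes the NG2 proteoglycan of pericytes and was the 1 gene of the 31 whose DKD libraries all lay above all Control libraries. It had 25.4, 27.3 and 26.4 CPM in DKD, against 22.2, 19.0 and 15.7 CPM in Control. Its log2 fold change was 0.48 ± 0.14 with an edgeR adjusted p of 0.121 and a DESeq2 adjusted p of 0.0452, and it was 0.36 ± 0.12 (edgeR adjusted p 0.143) without Control replicate 3. Within each library the ratio of Cspg4 to Pdgfrb CPM was 0.683, 0.489 and 0.532 in DKD, against 0.322, 0.377 and 0.372 in Control. That to Rgs5 was 0.267, 0.259 and 0.242 in DKD, against 0.169, 0.146 and 0.227 in Control, so neither ratio overlapped between the groups. The CPM of Cspg4 alone already did not overlap, as in 15.5% of all genes with DKD higher, so these ratios are not separate results. The ratio of Acta2 to Pdgfrb overlapped, with 1.92, 1.30 and 2.00 in DKD against 1.64, 2.75 and 1.27 in Control.

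Rgs5, a regulator of G-protein signalling that marks pericytes, had 95.3, 105 and 109 CPM in DKD, against 131, 130.3 and 69.5 CPM in Control. Its DKD libraries lay close together between Control replicate 3 and the others. Rgs5 had a log2 fold change of -0.09 ± 0.24 (edgeR adjusted p 0.856), and of -0.34 ± 0.11 (0.135) without Control replicate 3. Notch3, the Notch receptor of mural cells, had 19.5 to 25.9 CPM in DKD and 17.7 to 30.6 CPM in Control, and the adhesion molecule Mcam had 23.5 to 29.0 CPM in DKD and 19.1 to 34.6 CPM in Control. Their log2 fold changes were -0.17 ± 0.22 and -0.13 ± 0.23. In both, Control replicate 3 was the lowest library, and without it they were -0.38 ± 0.14 and -0.35 ± 0.13 (edgeR adjusted p 0.173 and 0.158). Akr1b7, an aldo-keto reductase that marks cells of the renin lineage in the mouse, had 3.17 to 4.65 CPM in DKD and 2.97 to 3.56 CPM in Control. Its log2 fold change was 0.13 ± 0.25 (edgeR adjusted p 0.802), and 0.05 ± 0.27 without Control replicate 3. A model on the opposite strand covers 27.2% of its exonic bases, as another does for Hopx, and close paralogs of Akr1b7 make its counts uncertain.

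Kcnj8 and Abcc9 encode the pore and the sulfonylurea receptor of the vascular ATP-sensitive potassium channel, and Gucy1a1 and Gucy1b1 the subunits of soluble guanylate cyclase, the receptor for nitric oxide. All 4 had negative log2 fold changes, with a median of -0.39. None passed the threshold by edgeR or DESeq2, and 1, Gucy1a1, had an unadjusted edgeR p under 0.05 (25%, against 10.9% of all genes lower). Gucy1a1 had 10.3, 17.1 and 18.7 CPM in DKD, against 34.7, 21.6 and 19.0 CPM in Control. The groups did not overlap, but DKD replicate 3 and Control replicate 3 lay side by side and Control replicate 1 far above. For Gucy1a1 the log2 fold change was -0.71 ± 0.29 (edgeR adjusted p 0.212). Its partner Gucy1b1 had 5.09, 6.32 and 8.93 CPM in DKD, against 11.5, 9.71 and 6.94 CPM in Control, with a log2 fold change of -0.47 ± 0.28 (edgeR adjusted p 0.363). Abcc9 had 11.6 to 21.3 CPM in DKD and 17.0 to 22.8 CPM in Control, with -0.32 ± 0.23. Kcnj8 had 3.90 to 7.15 CPM in DKD and 5.44 to 6.82 CPM in Control, with -0.16 ± 0.26, and was the 1 gene for which Control replicate 3 was not the lowest Control library.

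**Figure D3:**
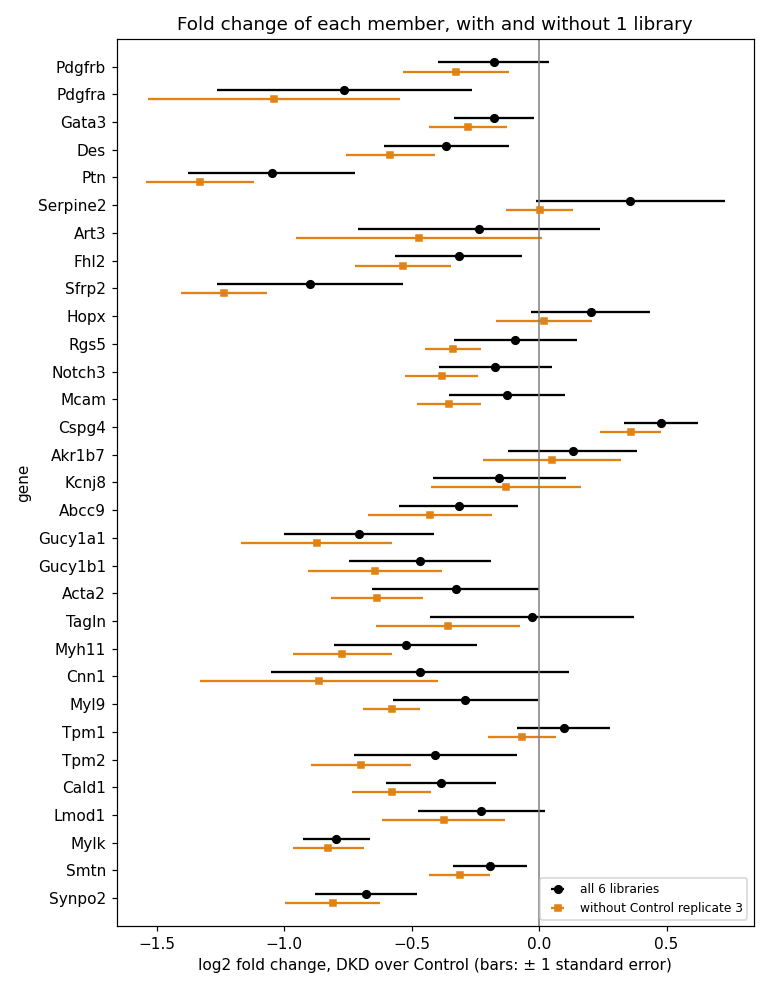
Log2 fold change, DKD over Control, with ± 1 standard error for the 31 genes, from all 6 libraries (black circles) and without Control replicate 3 (orange squares). Leaving out this library moved most genes to the left, Acta2 to -0.64 from -0.33 for example, while Mylk stayed near -0.80.

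Levels of different genes were compared per kilobase of exon. In both groups Myl9, Acta2, Tagln and Rgs5 stood highest, in that order, with 49.7 ± 4.31, 36.9 ± 7.13, 27.1 ± 10.5 and 22.7 ± 1.58 CPM per kilobase in DKD and 60.7 ± 23.3, 46.3 ± 19.8, 27.6 ± 12.4 and 24.2 ± 7.76 CPM per kilobase in Control. In all 6 libraries Myl9 lay above Acta2 and Acta2 above Tagln, whereas Tagln lay above Rgs5 in 4 of 6. Smtn, Tpm1, Fhl2 and Mylk followed in Control. Mylk ranked 8 of 31 in Control, at 12.6 ± 0.792 CPM per kilobase, and 10 of 31 in DKD, at 7.25 ± 0.931. Pdgfrb stood at 8.68 ± 1.72 CPM per kilobase in DKD and 9.83 ± 2.49 in Control, in the same range as Myh11 and Mcam. Synpo2 was the lowest in both groups, with 0.485 ± 0.0587 CPM per kilobase in DKD and 0.776 ± 0.139 in Control. Cspg4 ranked 22 in DKD and 29 in Control. The order depends on the length used. Per kilobase of the longest transcript (2890 bases for Tpm1, against 6485 over all its exons) Tpm1 stood above Tagln and Rgs5 in both group means.

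**Figure D4:**
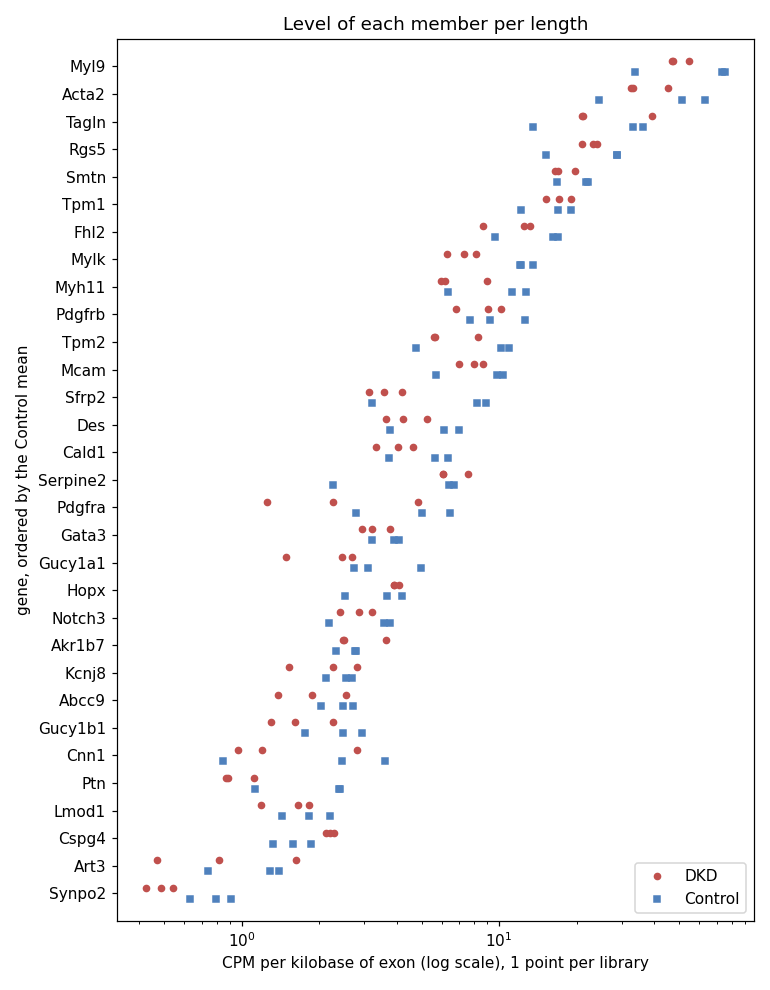
CPM per kilobase of exon (log axis) of the 31 genes, with 1 point per library, DKD as red circles above Control as blue squares, ordered by the Control mean. Levels span from under 1 for Synpo2 to above 49.7 for Myl9, and the lowest blue square of most genes is Control replicate 3.

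Genes that work with the 31 were listed apart, 124 in all, of which 121 were tested. Of these 2 fell by edgeR (1.65%) and 0 rose, where 0.431% of all genes fell and 0.725% rose, and their median log2 fold change was -0.11. At an unadjusted p under 0.05, 22 were lower (18.2%) and 2 higher (1.65%), against 10.9% and 11.8% of all genes. DESeq2 called 14 of these 121 genes, and 2486 of the 17785 genes to which it gave an adjusted p (14.0%). Agtr1a, the angiotensin II type 1a receptor through which angiotensin contracts mesangial and arteriolar cells, had 27.1, 30.4 and 22.7 CPM in DKD, against 64.7, 48.4 and 55.0 CPM in Control. All DKD libraries lay far below all Control libraries, with a log2 fold change of -1.07 ± 0.16 (edgeR adjusted p 0.0360). Which cells the Agtr1a counts came from was not tested. Tpm3, a further tropomyosin, had 52.4, 73.2 and 68.4 CPM in DKD, against 119, 129 and 117 CPM in Control, with a log2 fold change of -0.91 ± 0.15 (edgeR adjusted p 0.0436). As in Mylk, the Control libraries of Tpm3 lay close together, Control replicate 3 included. On leaving out Control replicate 1, Control replicate 2, DKD replicate 1 or DKD replicate 3, Agtr1a had edgeR adjusted p-values of 0.133, 0.0926, 0.142 and 0.109, and Tpm3 had 0.145, 0.140, 0.133 and 0.128. In these fits the log2 fold change lay between -1.16 and -0.95 for Agtr1a and between -0.95 and -0.78 for Tpm3. Without DKD replicate 2 Tpm3 had 0.0504.

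Over all genes 49.8% were lower in DKD, 22.6% had an unadjusted p under 0.05 (10.9% lower), and DESeq2 called 14.0%. By role, 7 of 10 PDGF and endothelin genes were lower in DKD, with a median of -0.38 and 0 past the edgeR threshold. Ece1, the endothelin-converting enzyme, had -0.55 ± 0.11 and the ligand Pdgfc had -0.56 ± 0.14 on the log2 scale (edgeR adjusted p 0.0585 and 0.0839). In this list 3 of the 10 had an unadjusted p under 0.05 (30%, all lower), and DESeq2 called 2. Of 14 Notch pathway genes 12 were lower, with a median of -0.26 and 0 past the threshold. The co-activator Maml1 had -0.48 ± 0.14 and the DNA-binding partner Rbpj -0.42 ± 0.14 (edgeR adjusted p 0.106 and 0.140). Among the 14, 3 had an unadjusted p under 0.05 (21.4%, all lower), and DESeq2 called 1. Of 14 nitric oxide, natriuretic peptide and cGMP genes 8 were lower, with a median of -0.30. None passed by edgeR, 4 had an unadjusted p under 0.05 (28.6%, all lower), and DESeq2 called 2. Among them Irag1, which relays cGMP to calcium stores, had -0.53 ± 0.15 and the phosphodiesterase Pde1a -0.88 ± 0.25.

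Transcription factors of the smooth muscle and mural lineages were evenly split, with 11 of 21 lower and a median of -0.01. None passed by edgeR, DESeq2 called 1, and 2 had an unadjusted p under 0.05 (9.52%), Tbx2 at -0.51 ± 0.15 and Nr2f2 at -0.29 ± 0.12. Among 36 further contractile and calcium genes 21 were lower and 15 higher, with a median of -0.11. Tpm3 was the 1 call by edgeR. At an unadjusted p under 0.05, 7 were lower (19.4%) and 1 higher (2.78%), against 10.9% and 11.8% of all genes. DESeq2 called 6 lower and 1 higher, where it called 6.34% and 7.64% of all genes. Of 13 renin lineage and vasoactive receptor genes 11 were tested, with 6 higher and 5 lower, and Agtr1a was the 1 call by edgeR and by DESeq2. At an unadjusted p under 0.05, 3 of the 11 were lower (27.3%) and 0 higher. Of 20 further mesangial markers 19 were tested, with 11 lower, a median of -0.05 and none past the threshold by edgeR or DESeq2. The ectonucleotidase Nt5e had 0.43 ± 0.15 and the integrin Itga8 had -0.76 ± 0.29. These 2 were the ones with an unadjusted p under 0.05 (5.26% in each direction). Without Control replicate 3, 5 of the related genes passed by edgeR (4.13%, against 1.88% of all genes). They were Agtr1a, Tpm3, Itga8 (edgeR adjusted p 0.0334) and the contractile genes Myh10 (0.0399) and Ppp1r12b (0.0488). The last 2 are named because of that result.

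The summed level of 7 podocyte markers was 289.8 to 395 CPM in DKD, against 429.7 to 583 CPM in Control, without overlap. Of these 6 were lower in DKD, 0 passed by edgeR and 6 had an unadjusted p under 0.05 (85.7%, all lower, against 10.9% of all genes). The sum of 7 endothelial markers was 221 to 391 CPM in DKD, against 348 to 526 CPM in Control. All 7 were lower, 0 passed by edgeR and 4 had an unadjusted p under 0.05 (57.1%). The 8 proximal tubule markers summed to 7837 to 16531 CPM in DKD and 15219 to 34167 CPM in Control. Kap gave the largest part of this sum in every library. All 8 were lower, with 2 of them past the edgeR threshold (25%, against 0.431% of all genes). The 7 leukocyte markers summed to 129 to 265 CPM in DKD and 94.9 to 190.1 CPM in Control, with 3 lower and 4 higher. Of these 0 passed by edgeR. The monocyte gene Cd14 and the B cell gene Cd79a were higher at an unadjusted p under 0.05 (28.6%, against 11.8% of all genes; edgeR adjusted p 0.0972 and 0.0845). Both were without overlap, as were 15.5% of all genes with DKD higher. The 3 lower were the macrophage genes Adgre1 (-0.25) and Csf1r (-0.20) and the T cell gene Cd3e (-0.06). None of these markers was at 0 in any library. The 31 genes summed to 893, 1056 and 1139 CPM in DKD and to 1419, 1432 and 857 CPM in Control. Divided by the podocyte sum of the same library, they gave 3.08, 3.58 and 2.89 in DKD, against 2.43, 3.03 and 1.99 in Control. Divided by the endothelial sum, they gave 4.04, 2.70 and 3.42 in DKD, against 2.70, 3.06 and 2.46 in Control. Divided by the proximal tubule sum, they gave 0.063, 0.064 and 0.145 in DKD, against 0.093, 0.083 and 0.025 in Control. Each of these ratios overlapped between the groups. The part that tubule, podocyte or endothelial RNA has in the values of the 31 genes was not tested.

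**Figure D5:**
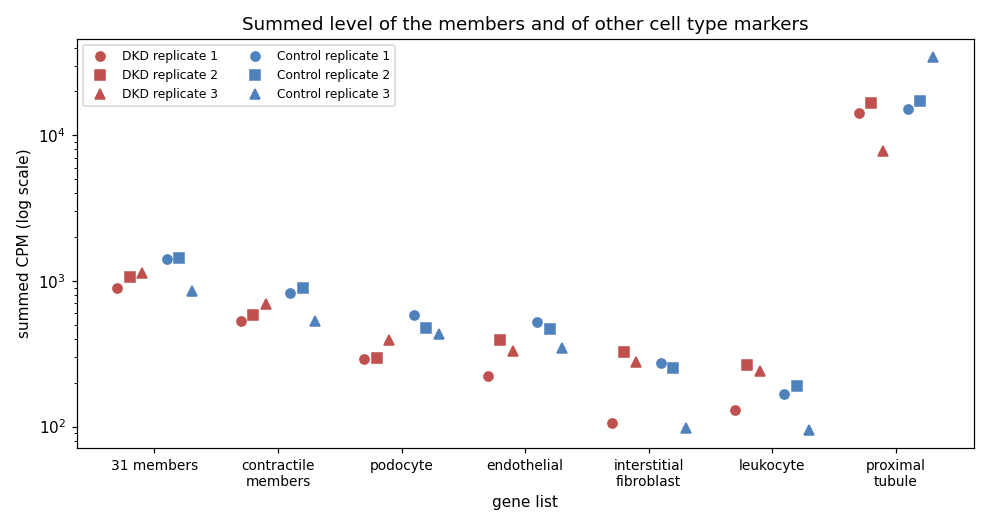
Summed CPM (log axis) of the 31 genes, of the 12 contractile genes and of markers of 5 other cell types in each library, DKD in red left of Control in blue, with circle, square and triangle for replicates 1, 2 and 3. Control replicate 3 is low for the 31 genes (857 CPM) and highest of all libraries for the proximal tubule markers (34167 CPM).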

How the data were processed

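The labels' protocols describe poly(A) selection, dUTP strand marking and paired reads of 150 bases. What the authors deposited are raw counts for each Ensembl gene, and fastp, HISAT2, StringTie, edgeR and GRCm39 are listed in the submitters' processing notes. Their versions, the annotation release and the use of strand in counting are not given. Symbols and exon lengths came from GENCODE M21 on GRCm38 (55141 identifiers matched, 260 did not), and the symbol Irag1 from a RefSeq synonym.

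Low genes were removed with filterByExpr (minimum count 10), libraries were scaled with TMM, and DKD was compared with Control by edgeR 4.0.16 (quasi-likelihood, R 4.3.3), group being the sole factor. The SE is the size of the log2 fold change over the square root of F. The procedure was also run on simulated counts. These held no library set apart from its group, so that run does not bear on Control replicate 3. Alternatives were RLE, upper quartile and total scaling, other filters, DESeq2 1.42.0, limma-voom (limma 3.58.1), robust dispersion, the replicate block, trends on length or GC removed (5 degrees of freedom), mitochondrially encoded genes left out, other thresholds and each library left out.

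The members, lists and tests were chosen with earlier results of these data known. Values by library are given for members with an unadjusted p under 0.05, the 8 with the highest Control level per length, and Pdgfrb, Acta2, Myh11, Des, Gata3, Rgs5 and Pdgfra. Those of Serpine2, Cnn1 and Gucy1b1 were added after their values were seen. From each list of related genes the text names those past the threshold, or otherwise the 2 with the smallest p.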

Additional observations from a re-analysis of the deposited data

How the results depend on the processing

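The median log2 fold change of the 31 genes was negative in every setting tried, from -0.47 without Control replicate 3 to -0.14 without Control replicate 2, and was -0.45 with library totals alone, where the median of all genes was -0.13. The call of Mylk rests on a narrow margin: it passed in 10 of 18 settings, with adjusted p between 8.67e-06 (DESeq2) and 0.166 (replicate block), and its log2 fold change stayed between -0.93 and -0.57. The number of the 31 called was 0 with library totals alone, with no filter, under the replicate block and with the length trend removed. In these settings 5, 5, 4 and 4 of the 31 had an unadjusted p under 0.05. Over all genes 4433 of 19717, 4754 of 30837, 3322 of 19717 and 4121 of 19717 had. The number called was also 0 at an adjusted p under 0.01, where 6 had an unadjusted p under 0.05, against 4458 of 19717 genes. It was 4 with DESeq2 (Cspg4, Mylk, Ptn and Synpo2) and ran from 0 to 3 with 1 library left out. Over all genes 228 passed, against 516 with the filter of 1 CPM in 3 libraries, 56 with no filter, 2486 with DESeq2, 1478 at an adjusted p under 0.1 and 1 at 0.01, and 1 to 386 with 1 library left out. That count was 1, 13 and 386 without Control replicates 1, 2 and 3, and 4 and 10 without DKD replicates 1 and 3. Of the related genes 2 passed, against 4 with the CPM filter, 0 with no filter, 14 with DESeq2, 6 and 0 at those thresholds, and 0 to 5 with 1 library left out. The replicate block called 0 genes in edgeR (3322 at an unadjusted p under 0.05), of the 31 0 and of the related genes 0. Same-numbered libraries of the groups correlated at -0.18, 0.07 and -0.22 in their deviations, and 1 of 6 libraries correlated best with its own number. With 3 libraries in each group these correlations cannot decide whether the numbers pair the samples. Signs turned for genes far from the threshold. With 1 library left out Pdgfrb ran from -0.33 to 0.037, Art3 from -0.83 to 0.094, Rgs5 from -0.34 to 0.048, Mcam from -0.35 to 0.024, Akr1b7 from -0.073 to 0.23, Kcnj8 from -0.38 to 0.047, Tagln from -0.39 to 0.22, Cnn1 from -1.08 to 0.0089 and Tpm1 from -0.069 to 0.24. Notch3 was 0.0040 with the length trend removed, Tagln 0.034 with limma-voom, and Akr1b7 -0.021 and Tpm1 -0.058 with library totals alone. Taking the longest transcript as the length raised the median Control level to 6.98 from 5.12 CPM per kilobase, with the same 8 genes highest. Their order changed, with Tpm1 above Tagln and Rgs5. The causes were not tested.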
